A study of Mus musculus with 8 samples.

Results

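The genes of the fibroblast growth factor (FGF) receptors and of the proteins that dampen FGF signalling were examined in C3H10T1/2 cells exposed to BMP7. C3H10T1/2 is a multipotent mouse mesenchymal line established from embryonic tissue and kept as a plated culture, while BMP7 belongs to the bone morphogenetic proteins, secreted ligands whose receptors activate SMAD proteins. The data comprise 4 arrays from cells kept for 3 days with BMP7 at 3.3 nM and 4 arrays from cells that received vehicle for the same time, all of the same line and all confluent before treatment. The 10 genes are Fgfr1, Fgfr2, Fgfr3, Fgfr4, Fgfrl1, Spry1, Spry2, Spry4, Spred1 and Dusp6, out of 13243 named genes, and every probe set annotated to 1 of them alone was kept, which gave 20 of 22690 probe sets. The family was chosen by what was already known of its signals in these BMP7 and vehicle arrays, and Fgfr3 was set against Fgfr1 for the same reason. The values of BMP7 against vehicle in these genes are therefore a description. Adjusted p-values are the rows these genes have in the limma fit over all tested probe sets, and they are no independent evidence for the family.

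FGFs are secreted ligands that bind receptor tyrosine kinases together with heparan sulfate chains on the cell surface. An activated receptor signals through the adaptor FRS2 and the RAS, RAF, MEK and ERK kinases, and ERK in turn induces genes whose products restrain the pathway, among them the Sprouty and Spred proteins and the phosphatase DUSP6. In the skeleton FGFR1 is known from mesenchymal precursors and FGFR3 from growth plate chondrocytes, where it restrains growth.

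Signals are MAS5 intensities, an average over the probes of a probe set, and each array carries 1 value per probe set. The test took in probe sets whose mean log2(signal + 16) over the 8 arrays reached the 40th percentile, 8.41, or a signal of about 325. Of the 20 probe sets 13 passed, from 9 of the 10 genes, and no Spry4 probe set did. Changes are given as BMP7 minus vehicle on the log2(signal + 16) scale with their standard error, and fold changes on that scale understate those of low signals. Probe sets ending in _s_at or _x_at can bind related transcripts, and those ending in _a_at can bind several transcripts of 1 gene. The signals of different probe sets are not set against each other as levels.

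Vehicle arrays were less alike than BMP7 arrays. Over the tested probe sets, pairs of arrays correlated at 0.947 to 0.966 (Pearson's r) in the BMP7 group and at 0.855 to 0.944 in the vehicle group. The Actb controls at the 3' and 5' ends of the transcript, whose ratio is higher where RNA is degraded, gave a ratio of 1.17 to 1.19 on the BMP7 arrays, and on Vehicle 1, 2, 3 and 4 one of 1.21, 1.40, 6.55 and 1.17. Spiked-in hybridisation controls had a mean log2 signal of 11.42 to 11.69 on the BMP7 arrays, against 12.11, 12.33 and 13.03 on Vehicle 1, 2 and 3 and 11.66 on Vehicle 4. Vehicle 3 had the lowest signal of its group in 8 of the 13 tested probe sets. All 10 mesenchymal markers passed the signal filter, with summed signals of 209246.4 to 247656.2 in BMP7 and 272782.2 to 386564.9 in vehicle arrays, and 2 of them, Col3a1 (-0.85) and Pdgfra (-1.28), were called lower in BMP7. None of the 6 epithelial, 1 of 5 endothelial, 4 of 6 macrophage and 1 of 3 neuronal markers on the array passed. The neuronal sum was 1073.4 to 1533.3 in BMP7 and 579.9 to 875.0 in vehicle arrays, where Stmn2 was called higher (1.34, adjusted p 0.0452 in limma's fit), and the other 3 sums overlapped between the groups. Fits with the Actb ratio or the hybridisation controls as a covariate are among the alternatives. On Vehicle 1, 2 and 3 the hybridisation controls lay above every BMP7 array. A fit with them as a covariate therefore cannot fully separate them from treatment. No fit took in the marker sums, and the cause of these differences was not tested. In RNA from a whole culture, fewer cells of a kind and less transcript per cell cannot be told apart.

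Among the 13 tested probe sets, 2 were higher in BMP7 past an adjusted p of 0.05 (Fgfr3 and 1 of Fgfr2), 2 were lower (1 of Fgfr1 and 1 of Spry2) and 9 did not pass. Over all 13576 tested probe sets the fit called 1.63% higher and 1.50% lower. All BMP7 arrays lay above all vehicle arrays in 4 of the 13 and below them in 2, where over all tested probe sets the shares were 8.30% and 7.10%. The median change of the 13 was 0.66, and that of all tested probe sets was 0.04. Since the family was taken up for these changes, nothing is read from the shares.

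**Figure D1:**
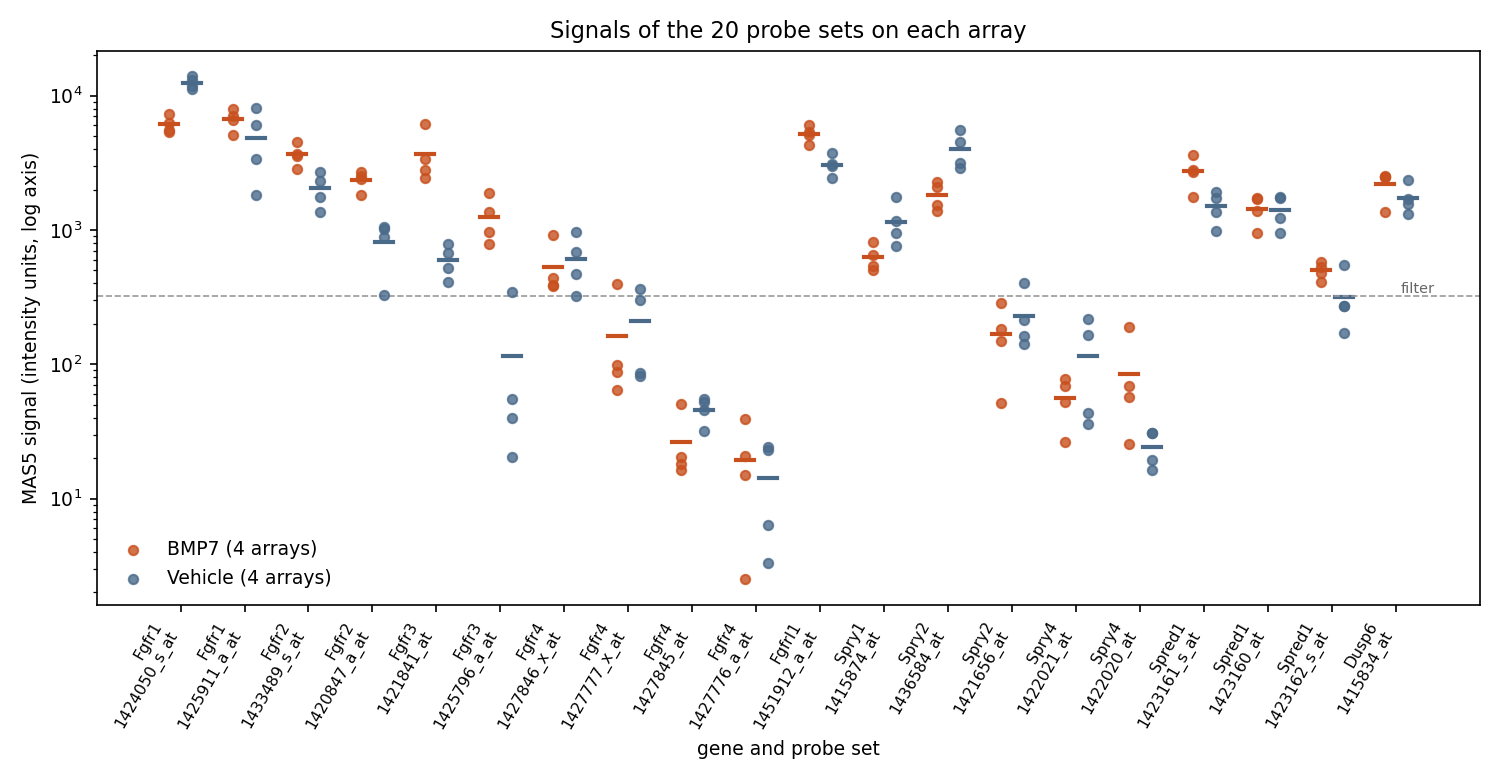
MAS5 signal (intensity units, log axis) of each of the 20 probe sets on the 4 BMP7 arrays (orange, left of each pair) and the 4 Vehicle arrays (blue, right). Points are arrays, bars are group means, and the dashed line is the signal filter of about 325. Both Fgfr3 probe sets stand furthest above their vehicle points, Fgfr1 1424050_s_at and Spry2 1436584_at lie below theirs, and every Spry4 point is under the filter.

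Fgfr3 encodes the FGF receptor known for restraining the growth of cartilage, and its gene lies on mouse chromosome 5. Its probe set 1421841_at had signals of 2428.1, 3398.9, 6116.0 and 2810.9 in BMP7 arrays 1 to 4, against 791.2, 667.8, 523.1 and 409.3 in vehicle arrays 1 to 4. Every BMP7 array lay at least 3 times above the highest vehicle array, and BMP7 3 stood above the other 3 of its group. The signal averaged 3688.5 ± 1666.9 in BMP7 and 597.9 ± 166.7 in vehicle (SD, n = 4 each), a change of 2.54 ± 0.31, or 5.81-fold on the log2(signal + 16) scale, with an adjusted p of 0.00263 in limma's fit. The call held in all 19 alternatives tried, with changes of 2.27 to 2.71 and a highest adjusted p of 0.0366. The authors' deposited table gives a ratio of 6.17 and an unadjusted p of 0.0334 for this probe set.

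The second Fgfr3 probe set, 1425796_a_at, missed the filter because its vehicle signals were low. It read 783.8, 1358.7, 1890.8 and 964.8 in BMP7 arrays and 40.1, 20.3, 55.3 and 343.8 in vehicle arrays. Again the groups did not overlap, BMP7 3 was again the highest, and Vehicle 4 stood well above the other vehicle arrays, while on 1421841_at the same array was the lowest of all. The change was 3.82, and a fit without the filter gave it a standard error of 0.63 and an adjusted p of 0.0152.

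The 250 bases upstream of each Fgfr3 start listed in RefSeq for GRCm38.p6 are shown with those of Fgfr2, because these are the receptor genes with a rise in BMP7 past the threshold. Windows of 8 of the 10 genes were examined, 9 windows in all. Fgfr1 had no entry and Spry4 was left out, so the motif counts below do not cover these genes. Capitals mark GGCGCC, a motif bound by BMP-regulated SMAD proteins, and GGGCGG in either direction (its other strand reads CCGCCC), the GC box bound by Sp1. The Fgfr3 windows lie on the plus strand at chr5:33721474-33721723 and chr5:33722056-33722305, and the Fgfr2 window on the minus strand at chr7:130266809-130267058.
Fgfr3, first start: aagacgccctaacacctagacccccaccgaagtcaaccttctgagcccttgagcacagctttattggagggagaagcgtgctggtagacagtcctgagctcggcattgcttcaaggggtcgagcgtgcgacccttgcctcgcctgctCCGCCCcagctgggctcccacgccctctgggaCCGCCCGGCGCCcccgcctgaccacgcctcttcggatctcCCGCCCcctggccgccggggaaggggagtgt
Fgfr3, second start: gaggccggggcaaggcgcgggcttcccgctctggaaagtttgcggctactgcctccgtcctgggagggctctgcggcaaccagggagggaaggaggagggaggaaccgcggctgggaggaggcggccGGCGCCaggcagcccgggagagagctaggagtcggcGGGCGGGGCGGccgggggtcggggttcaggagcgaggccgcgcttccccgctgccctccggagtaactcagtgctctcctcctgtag
Fgfr2: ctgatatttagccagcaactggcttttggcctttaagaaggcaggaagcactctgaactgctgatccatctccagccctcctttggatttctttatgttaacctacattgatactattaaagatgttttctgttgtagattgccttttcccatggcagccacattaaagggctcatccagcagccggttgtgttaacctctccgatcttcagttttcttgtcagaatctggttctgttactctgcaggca
Each Fgfr3 window holds 1 GGCGCC, beginning 65 and 123 bases before the start, with 3 GC boxes in the first window and 2 in the second, which overlap each other by 1 base. The Fgfr2 window holds neither motif. Of all 32851 windows of this length 9.6% hold GGCGCC and 32.7% the GC box, and among the 8 genes GGCGCC occurred in 2, Fgfr3 and Spred1, and the GC box in 5. The Fgfr3 windows have a G and C content of 66.8% and 72.8% and the Fgfr2 window one of 44.0%, where the median of all windows is 52.4%. The SMAD palindrome GTCTAGAC occurred in none of the 8 genes and in 0.2% of all windows, and CCGGAA, the core bound by ETS factors, in Fgfr4 and Fgfrl1 and in 12.0% of all windows. A match to these letters is a description of the sequence, and no binding was measured here.

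Fgfr1 encodes the receptor that mesenchymal precursors are known to use, and its gene lies on chromosome 8. Its probe set with the highest mean, 1424050_s_at, read 7356.9, 6248.2, 5387.5 and 5586.1 in BMP7 arrays and 11833.7, 12980.4, 14012.6 and 11195.6 in vehicle arrays. All 4 BMP7 arrays lay below all 4 vehicle arrays, BMP7 3 was the lowest of its group and Vehicle 3 the highest of its own. The signal was 6144.7 ± 888.0 in BMP7 and 12505.6 ± 1246.9 in vehicle (SD, n = 4 each), a fall of 2.04-fold on the log2(signal + 16) scale (-1.03 ± 0.17, adjusted p 0.0106 in limma's fit). The call was lost without BMP7 2 (adjusted p 0.0506), BMP7 3 (0.0573) or BMP7 4 (0.0551), with the change between -0.97 and -1.04, and with the hybridisation controls as a covariate (-0.89, adjusted p 0.145). The authors' deposited table gives it a ratio of 0.491 and an unadjusted p of 0.000277.

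The other Fgfr1 probe set, 1425911_a_at, did not show the fall. It read 7977.0, 7048.1, 6540.9 and 5067.6 in BMP7 arrays and 6056.3, 1810.0, 3400.4 and 8027.9 in vehicle arrays. The groups overlapped, since Vehicle 4 was higher than every BMP7 array and Vehicle 2 and 3 were lower than every one. The change was 0.66 ± 0.39 with an adjusted p of 0.344 in limma's fit, and it was -0.09 (adjusted p 0.859) without Vehicle 2 and Vehicle 3, the vehicle arrays with the highest Actb ratios. The lower Fgfr1 signal in BMP7 thus rests on 1 of the gene's 2 probe sets, and its type can bind related transcripts.

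**Figure D2:**
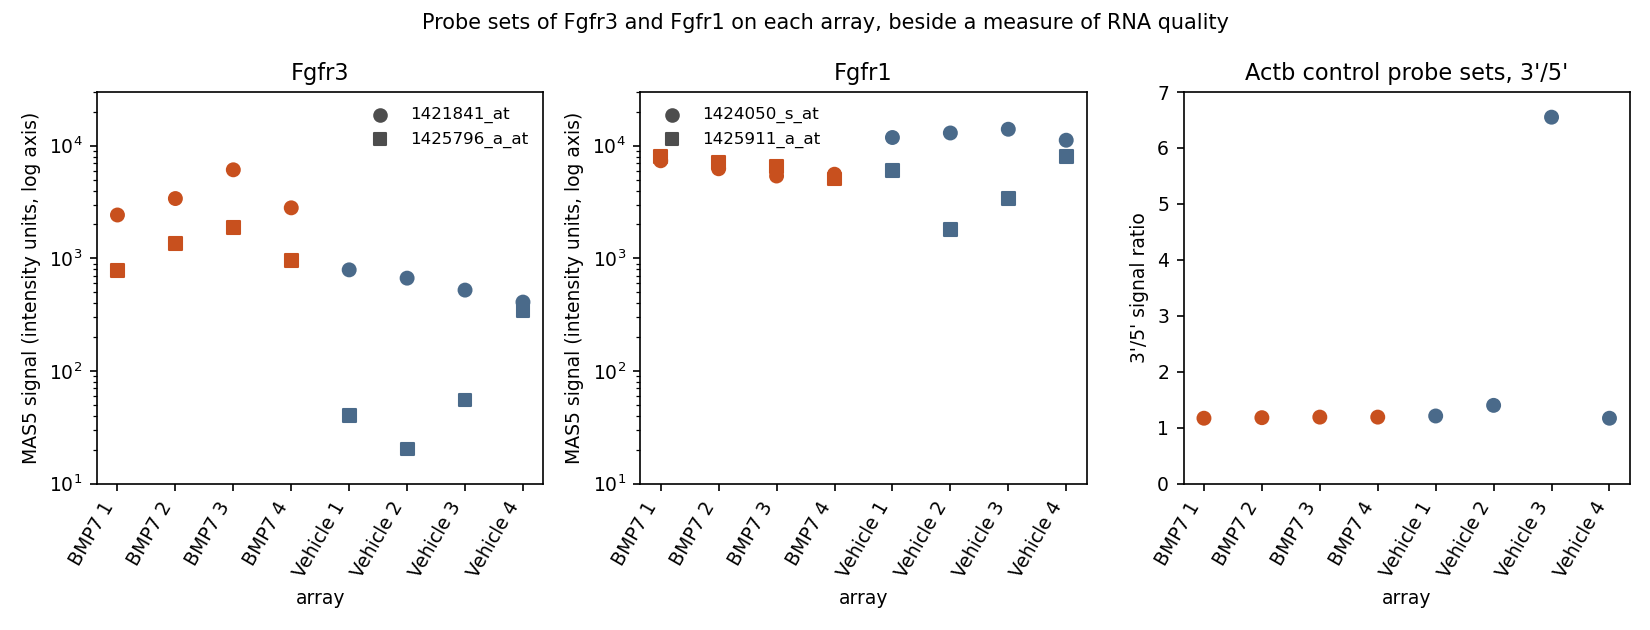
Left and middle, MAS5 signal (intensity units, log axis) of both probe sets of Fgfr3 and of Fgfr1 on each array (circles and squares; orange BMP7, blue Vehicle); right, the 3'/5' ratio of the Actb control probe sets. Both Fgfr3 probe sets separate the groups, Fgfr1 1424050_s_at separates them the other way, Fgfr1 1425911_a_at overlaps, and Vehicle 3 has an Actb ratio of 6.55.

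The contrast between both receptors was taken within each array as the log2(signal + 16) of Fgfr3 1421841_at minus that of Fgfr1 1424050_s_at. The difference itself has no meaning as a ratio of transcripts, because probe sets differ in brightness, and only its shift between groups is read. It was -1.59, -0.88, 0.18 and -0.99 in BMP7 arrays and -3.88, -4.25, -4.70 and -4.72 in vehicle arrays. All BMP7 arrays lay above all vehicle arrays, and BMP7 3, with the highest Fgfr3 and the lowest Fgfr1 signal of its group, was the highest.

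The mean was -0.82 ± 0.74 in BMP7 and -4.39 ± 0.40 in vehicle (SD, n = 4 each), a shift of 3.57 with a standard error of 0.42, or 11.86-fold. No test is given, since the pair was taken up for this shift. Leaving out any 1 array gave 3.23 to 3.83, and leaving out Vehicle 2 and Vehicle 3 gave 3.48. With the other Fgfr1 probe set the shift was 1.88, with the other Fgfr3 probe set it was 4.84, with both of the others it was 3.16, and with the mean of each gene's probe sets it was 3.36. Its size thus depended on which probe set of either gene was read. With Fgfr1 1425911_a_at and Fgfr3 1421841_at the groups overlapped, since BMP7 1 at -1.71 lay below Vehicle 2 at -1.42. The shift was above 0 in all of these.

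Fgfr2, on chromosome 7, encodes a receptor with epithelial and mesenchymal splice forms. Its probe set 1420847_a_at read 2521.7, 2398.6, 2690.3 and 1834.1 in BMP7 arrays and 1007.9, 879.5, 327.4 and 1047.8 in vehicle arrays. BMP7 and vehicle arrays did not overlap, and Vehicle 3 was the lowest of all. The mean was 2361.2 ± 371.2 in BMP7 and 815.7 ± 333.3 in vehicle (SD, n = 4 each), a rise of 3.09-fold on the log2(signal + 16) scale (1.63 ± 0.34, adjusted p 0.0314 in limma's fit). The call was lost with the hybridisation controls as a covariate (0.70, adjusted p 0.422) and without BMP7 1 (adjusted p 0.0737), BMP7 2 (0.105), BMP7 3 (0.114), BMP7 4 (0.0713), Vehicle 1 (0.0529) or Vehicle 2 (0.0522). With any 1 of these arrays left out the change was 1.56 to 1.77. Without Vehicle 3 the rise was smaller, 1.25, and the adjusted p was 0.00475.

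The probe set Fgfr2 1433489_s_at read 3670.8, 3568.9, 4493.0 and 2845.0 in BMP7 arrays and 2718.7, 2318.0, 1370.9 and 1761.7 in vehicle arrays. There was no overlap, with the lowest BMP7 array close to the highest vehicle array. The change of 0.86 ± 0.24 did not pass (adjusted p 0.0789 in limma's fit), nor did it in any of the 19 alternatives. Both Fgfr2 probe sets were thus higher in every BMP7 array, and 1 of them passed the threshold.

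Fgfrl1 encodes a membrane protein that binds FGFs and lacks the kinase domain of the other receptors. Its probe set 1451912_a_at read 5360.0, 5080.8, 6013.4 and 4265.4 in BMP7 arrays and 3747.9, 3086.4, 2424.7 and 2977.4 in vehicle arrays. All BMP7 arrays lay above all vehicle arrays, BMP7 3 was the highest and Vehicle 3 the lowest. The change of 0.76 ± 0.19, or 1.70-fold, did not pass (adjusted p 0.0563 in limma's fit). It passed with quantile normalization (adjusted p 0.0490), with array weights (0.0311) and without Vehicle 3 (0.0453), where the change was 0.66.

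Fgfr4, on chromosome 13, encodes a receptor known from liver and from muscle precursors. Of its 4 probe sets 1 passed the filter, 1427846_x_at, with 390.2, 911.7, 382.8 and 441.3 in BMP7 arrays and 323.1, 468.7, 686.5 and 958.6 in vehicle arrays. The groups overlapped and the change was -0.18 ± 0.38, with a 95% interval of -1.01 to 0.65 (adjusted p 0.815 in limma's fit). The other 3 had mean signals of 161.7, 26.45 and 19.30 in BMP7 and 209.3, 46.03 and 14.32 in vehicle, all below the filter.

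Sprouty proteins are intracellular inhibitors of receptor tyrosine kinase signalling that act upstream of ERK. The Spry2 gene lies on chromosome 14, and its probe set 1436584_at read 1531.5, 2270.1, 1375.7 and 2083.8 in BMP7 arrays and 4528.3, 5541.9, 2895.7 and 3161.1 in vehicle arrays. Every BMP7 array lay below every vehicle array, and Vehicle 1 and 2 were the highest. The mean was 1815.3 ± 429.2 in BMP7 and 4031.8 ± 1235.0 in vehicle (SD, n = 4 each), a fall of 2.18-fold on the log2(signal + 16) scale (-1.12 ± 0.26, adjusted p 0.0415 in limma's fit). The call was near the threshold and was lost without the filter (adjusted p 0.0505), without the intensity trend (0.0523), with the hybridisation controls as a covariate (0.230), and without BMP7 1 (0.0970), BMP7 2 (0.0877), BMP7 3 (0.149), BMP7 4 (0.0977), Vehicle 1 (0.108) or Vehicle 2 (0.0820), while the change stayed between -0.96 and -1.27 in all 19 alternatives. The second Spry2 probe set, 1421656_at, was below the filter, with means of 167.3 in BMP7 and 230.5 in vehicle and a change of -0.50.

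Spry1, on chromosome 3, read 649.7, 819.8, 501.1 and 537.5 in BMP7 arrays and 942.9, 1156.5, 754.3 and 1765.7 in vehicle arrays on its probe set 1415874_at. The groups overlapped in a single pair, since BMP7 2 was higher than Vehicle 3. The change of -0.82 ± 0.28 did not pass (adjusted p 0.127 in limma's fit), and it passed in 1 of 18 alternatives, that with array weights (adjusted p 0.0367).

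Spry4 could not be compared. Its probe set 1422021_at read 68.5, 77.7, 52.8 and 26.5 in BMP7 arrays and 217.7, 36.1, 166.3 and 43.2 in vehicle arrays, and 1422020_at read 25.3, 56.6, 68.6 and 188.9 in BMP7 arrays and 19.3, 30.8, 16.4 and 30.9 in vehicle arrays. All of these values lie below the filter, the groups overlapped on both probe sets, and the differences between the group means had opposite signs.

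Spred1, on chromosome 2, encodes a Sprouty-related inhibitor that acts on RAS signalling at the membrane. Its probe set 1423161_s_at read 1771.3, 2810.0, 2681.3 and 3641.4 in BMP7 arrays and 1360.5, 1738.2, 985.8 and 1927.7 in vehicle arrays, with 1 overlap, BMP7 1 below Vehicle 4. Its change of 0.85 ± 0.27 did not pass (adjusted p 0.109 in limma's fit) except with array weights (adjusted p 0.0249). Its other probe sets did not pass either, with changes of 0.74 ± 0.34 for 1423162_s_at (adjusted p 0.226) and 0.03 ± 0.27 for 1423160_at (adjusted p 0.958). Without Vehicle 2 and Vehicle 3 the changes were 0.70 for 1423161_s_at, 0.35 for 1423162_s_at and 0.37 for 1423160_at, and none passed. On 1423160_at the signals were 954.0, 1379.0, 1689.2 and 1729.6 in BMP7 arrays and 943.4, 1717.7, 1761.1 and 1228.3 in vehicle arrays, so the groups covered the same range. The 3 probe sets of this gene thus did not give 1 answer.

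Dusp6, on chromosome 10, encodes a phosphatase that inactivates ERK and is a widely used readout of FGF signalling. Its probe set 1415834_at read 2512.3, 2498.8, 1360.6 and 2460.5 in BMP7 arrays and 1569.0, 2341.3, 1313.3 and 1712.3 in vehicle arrays. Of the BMP7 arrays 3 lay above every vehicle array, and BMP7 3 lay below 3 of the 4. The change was 0.33 ± 0.26, with a 95% interval of -0.23 to 0.90 (adjusted p 0.466 in limma's fit), which did not pass in any of 19 alternatives. Without BMP7 3 the change was 0.55 (adjusted p 0.305).

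**Figure D3:**
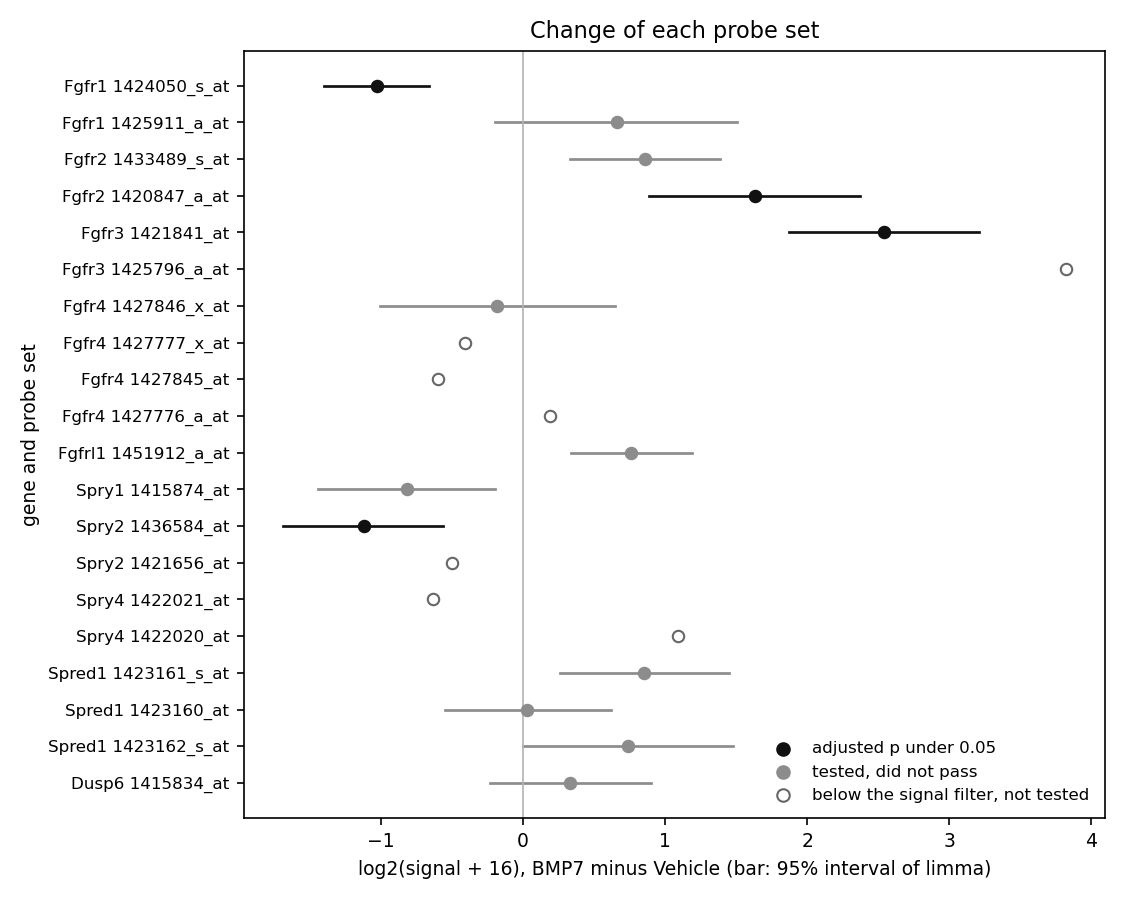
Change of each probe set, BMP7 minus Vehicle on the log2(signal + 16) scale, with its 95% interval in limma's fit (n = 4 arrays each). Black marks an adjusted p under 0.05, grey a tested probe set that did not pass, and open circles probe sets below the signal filter, which have no interval. Fgfr3 lies at 2.54, Fgfr2 1420847_a_at at 1.63, Fgfr1 1424050_s_at at -1.03 and Spry2 1436584_at at -1.12.

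The estimated changes of the feedback genes did not all lie on 1 side of 0. Of the 5 genes, Spry2 fell on its tested probe set, Spry4 was not tested, and Spry1, Spred1 and Dusp6 did not pass, with changes below 0 for Spry1 and above 0 for Dusp6 and the Spred1 probe sets. Among the receptors Fgfr3 and Fgfr2 rose on 1 tested probe set each, Fgfr1 fell on 1 of 2, and Fgfrl1 and Fgfr4 did not pass. Array BMP7 3 held the highest signal of its group in 4 and the lowest in 5 of the 13 tested probe sets. Without BMP7 3, Fgfr3 was the single member called, and the same was true without BMP7 2 or BMP7 4.

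The rest of the FGF pathway was read from 6 lists of 120 genes, of which 109 had a probe set of their own and 78 passed the filter, each gene taken at the brightest of its tested probe sets. The fit called 3 of the 78 higher, Gpc6, Junb and Sox9, and none lower, and 18 had an unadjusted p under 0.05. The same fit called 1.63% of all tested probe sets higher and 1.50% lower, and 21.8% of them had an unadjusted p under 0.05.

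Of the 22 FGF ligand genes 4 passed the filter, Fgf1, Fgf4, Fgf7 and Fgf9, which are named because they passed. None was called in limma's fit, none had an unadjusted p under 0.05, and their median change was -0.18. Fgf7, a ligand of the epithelial form of FGFR2, read 3301.9, 3561.5, 2587.8 and 4068.5 in BMP7 arrays and 3952.9, 3026.0, 2471.2 and 4941.6 in vehicle arrays, and the groups overlapped (-0.06 ± 0.24, adjusted p 0.909). Fgf2, a ligand of several FGF receptors, was below the filter, with 142.6 ± 36.86 in BMP7 and 126.8 ± 88.35 in vehicle (SD, n = 4 each).

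Among co-receptors and binding partners 9 of 19 genes were tested and 1 rose. Gpc6, a cell surface heparan sulfate proteoglycan, read 2815.4, 2760.1, 3736.8 and 2536.4 in BMP7 arrays and 1150.8, 1349.1, 2188.7 and 1170.4 in vehicle arrays. The groups did not overlap, and the change was 1.04 ± 0.24 (adjusted p 0.0425 in limma's fit). The call held in 2 of 8 fits without 1 array, those without Vehicle 3 or Vehicle 4, and was lost without any other array, with adjusted p-values of 0.0826 (without Vehicle 2) to 0.154 (without BMP7 3). It was also lost with quantile normalization (0.0551), without the intensity trend (0.0523), without the filter (0.0524) and with the hybridisation controls as a covariate (0.0504). The median of the 9 was -0.24, with changes from -0.57 to 1.04.

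Of the adaptors and the RAS-ERK chain 23 of 26 genes were tested and none was called in limma's fit, while 6 had an unadjusted p under 0.05, a threshold that 21.8% of all tested probe sets passed. Their median change was 0.21, where that of all tested probe sets was 0.04. Mapk3, the gene of ERK1, read 9207.8, 9604.2, 10192.6 and 7426.7 in BMP7 arrays and 5276.2, 2905.8, 6033.9 and 6319.8 in vehicle arrays, without overlap (0.88 ± 0.25, adjusted p 0.0796). No probe set named Frs2 alone, the gene of the FGF receptor adaptor, or Dusp4 alone, that of an ERK phosphatase.

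Of the other inhibitors of RAS-ERK signalling 14 of 20 genes were tested and none was called in limma's fit, with 1 at an unadjusted p under 0.05, a median of -0.20 and a range of -0.59 to 0.44. The lowest was Il17rd, known as Sef, a membrane inhibitor of FGF signalling. It read 373.8, 320.9, 227.5 and 422.4 in BMP7 arrays and 533.9, 510.7, 605.7 and 378.8 in vehicle arrays, where BMP7 4 was higher than Vehicle 4 (-0.59 ± 0.27, adjusted p 0.242).

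Transcripts that ERK signalling is known to induce had changes of both signs. Of 18 tested genes of 20, 1 rose in limma's fit, Junb, an AP-1 transcription factor, with 1012.2, 2942.9, 1664.1 and 1817.0 in BMP7 arrays and 349.0, 804.6, 367.6 and 794.8 in vehicle arrays. The groups did not overlap (1.66 ± 0.37, adjusted p 0.0390), and the call held in 4 of 8 fits without 1 array, with a highest adjusted p of 0.132 without BMP7 2. It was lost, at changes of 1.41 to 1.69, without BMP7 2, BMP7 3 (0.125), BMP7 4 (0.117) or Vehicle 1 (0.101), and without Vehicle 2 and Vehicle 3 together (0.0532). It was also lost with the Actb 3'/5' ratio as a covariate (0.0569), without the filter (0.0561) and with the hybridisation controls as a covariate (a change of 1.18, adjusted p 0.424).

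The 3 ETS factor genes most often used as readouts of FGF signalling did not share a direction, and none was called. Etv1 read 419.0, 319.6, 360.7 and 674.6 in BMP7 arrays and 1168.4, 525.6, 1122.0 and 1491.0 in vehicle arrays, with BMP7 4 above Vehicle 2 as the single overlap (-1.21 ± 0.34, adjusted p 0.0791). Etv5 read 1303.5, 1225.3, 1331.2 and 1847.6 in BMP7 arrays and 935.2, 228.3, 345.2 and 1675.8 in vehicle arrays, where Vehicle 4 lay above 3 BMP7 arrays (1.21 ± 0.51, adjusted p 0.196). Etv4 was below the filter, at 247.2 ± 156.6 in BMP7 and 196.6 ± 141.1 in vehicle (SD, n = 4 each).

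Egr1, an immediate early gene, varied widely within both groups, with 17427.8 on BMP7 2 and 804.3 to 1714.2 on the other BMP7 arrays, and 32831.5 on Vehicle 2 and 2257.8 to 6312.3 on the other vehicle arrays (-1.28 ± 0.99, adjusted p 0.472). Ccnd1, the gene of cyclin D1, changed by -0.02 ± 0.33 (adjusted p 0.975 in limma's fit) and Phlda1 by 0.34 ± 0.31 (adjusted p 0.541), both without passing. The median of the 18 was 0.22.

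Of the genes known downstream of FGFR3 in growth plate cartilage 10 of 13 were tested, and 1 rose in limma's fit. Sox9, the transcription factor that directs chondrocyte differentiation, read 8771.2, 9407.7, 10814.9 and 8075.7 in BMP7 arrays and 3641.8, 6117.8, 1524.7 and 2948.5 in vehicle arrays. The groups did not overlap and Vehicle 3 was the lowest (1.54 ± 0.34, adjusted p 0.0389). The call was lost without any 1 BMP7 array or Vehicle 1, with changes of 1.46 to 1.6 and adjusted p-values of 0.0798 to 0.139. It held without Vehicle 3, at 1.19 (adjusted p 0.0170). It was also lost without the filter (0.0503) and with the hybridisation controls as a covariate, where the change was 1.01 (adjusted p 0.443). The median of the 10 was -0.07, with changes from -0.40 to 1.54. It was 0.32 with each gene's change averaged over its tested probe sets, so its sign depended on the choice of probe set.

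**Figure D4:**
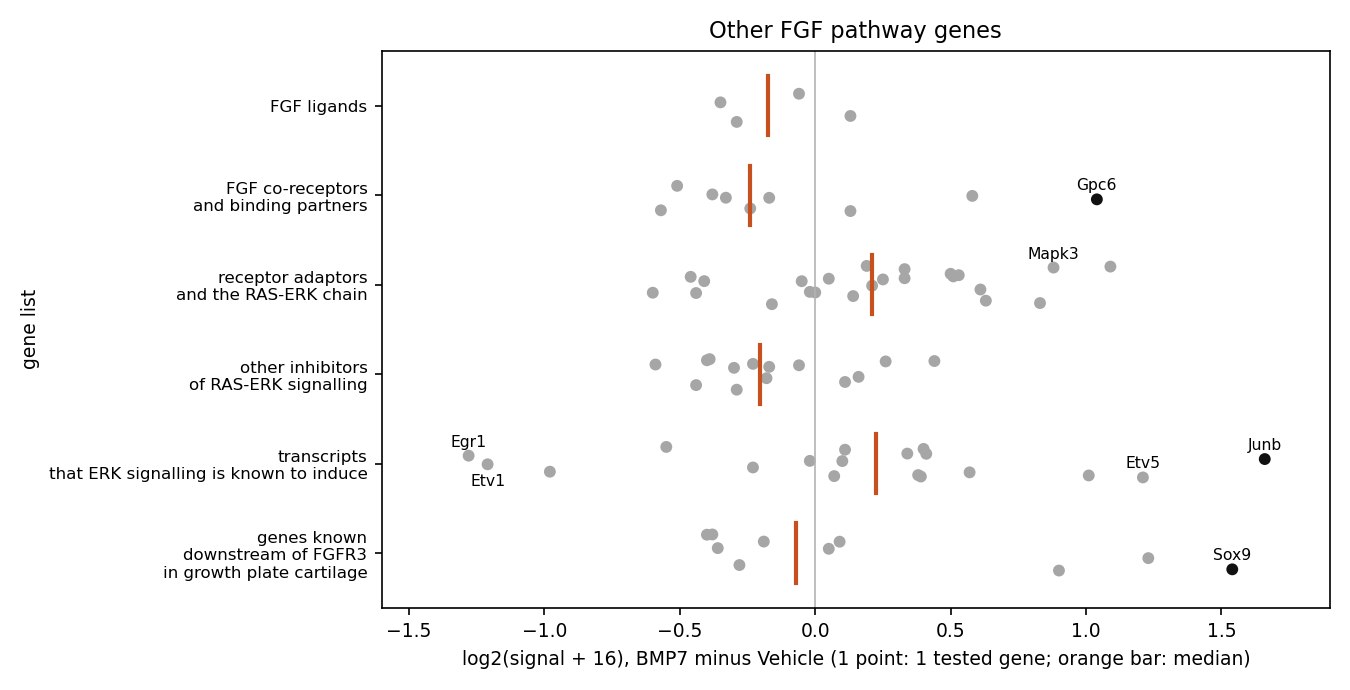
Change of each tested gene of the 6 FGF pathway lists, BMP7 minus Vehicle on the log2(signal + 16) scale, 1 point per gene and an orange bar at each list's median. Black points are the called genes Gpc6 (1.04), Junb (1.66) and Sox9 (1.54). With each gene at its brightest tested probe set, the list medians lie between -0.24 and 0.22.

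The genes whose pattern over the 8 arrays lay nearest to Fgfr3 were found by the root mean square difference of log2(signal + 16) values centred on each gene's mean, over 8365 genes. The nearest was Col2a1, the gene of the main collagen of cartilage, at 0.388, where the median over all genes was 1.38. It read 20061.9, 30146.1, 40222.5 and 26042.0 in BMP7 arrays and 4720.9, 8320.6, 4125.9 and 5831.0 in vehicle arrays, and BMP7 3 was the highest array for it as for Fgfr3. The next were Fibin at 0.523, Crlf3 at 0.540, the sulfate transporter gene Slc26a2 at 0.561 and Id4, an inhibitor of DNA-binding helix-loop-helix proteins, at 0.562.

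For Fgfr1 1424050_s_at the nearest were Tbc1d14 at 0.124, Osbpl2 at 0.129 and Gas1 at 0.138, where the median over all genes was 0.63. Gas1, a growth arrest gene whose product binds hedgehog proteins at the cell surface, read 19972.8, 20217.6, 18690.4 and 20357.2 in BMP7 arrays and 36392.8, 43926.7, 50968.9 and 33539.9 in vehicle arrays. Vehicle 3 was the highest array for Gas1 and for Fgfr1. These genes were selected on the same 8 arrays, so their likeness is a description.

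**Figure D5:**
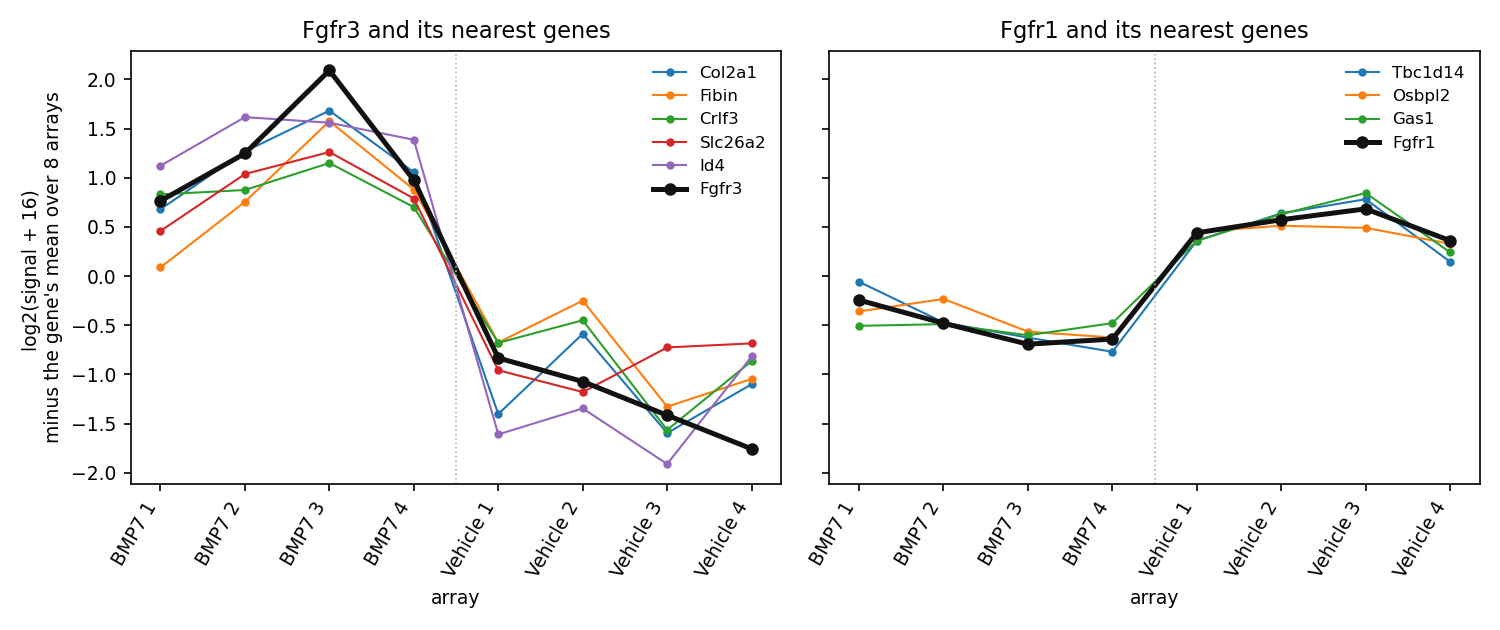
Log2(signal + 16) minus the gene's mean over the 8 arrays, for Fgfr3 1421841_at with its 5 nearest genes (left) and Fgfr1 1424050_s_at with its 3 nearest (right), BMP7 arrays left of the dotted line and Vehicle arrays right of it. Lines join the arrays of 1 gene and carry no order. Col2a1 runs closest to Fgfr3 (0.388) and Tbc1d14 closest to Fgfr1 (0.124).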

How the data were processed

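Per the labels' protocols, biotinylated cRNA was made from total RNA and read on 1 Affymetrix 430A mouse array per sample. The authors deposited 1 intensity per probe set and array on a linear scale, and the submitters' processing notes name MAS5. Its version, the detection calls and the target of the scaling were not given in the sources used here. Without the highest and lowest 2%, every array's mean lay between 1500.4 and 1500.7, so 1 scaling had been applied to all. Arrays were assigned through the deposited table whose columns name the samples, and the deposited group means of the annotated table equal the means of these columns within 0.01 in every row. The signal columns of that table, 8 of them, carry no sample name and were not used. The authors also deposited a ratio of group means and a p-value per probe set, per the file headers, and a few are quoted as theirs.

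Gene symbols came from the deposited annotation, where 21453 of the 22690 probe sets name 1 gene, 20828 of which were matched by Entrez identifier to RefSeq of GRCm38.p6. The annotation's genome build is not stated. The 64 control probe sets were left out of the test. Values were analysed as log2(signal + 16) with limma 3.58.1 in R 4.3.3 (lmFit, then eBayes with the trend option, two-sided) without covariate or block. Probe sets at or above the 40th percentile of the mean were tested (13576, of 8374 genes), with Benjamini-Hochberg adjustment over all of them and a threshold of 0.05. The fit was also run on simulated data with independent noise of equal spread in both groups. These arrays differ from that setting, so nothing is read from it. The median standard error of a log2 change was 0.25, and 4 arrays per group limit the precision. The labels number the samples and do not say whether they are separate cultures, so the p-values rest on the spread among these samples alone, and that spread may be technical.

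The members and lists were chosen with earlier results of these data known. Named genes were every member probe set, up to 4 called rises and 4 called falls of each pathway list, 13 pathway genes whatever they did, and the genes nearest to Fgfr3 and Fgfr1. The result for 1 gene under that rule is not reported here. Cell type markers are named only where the fit called them. Where any other name falls outside that rule the text says so. Promoter sequences are RefSeq's for GRCm38.p6. Alternatives covered the pseudocount, the filter, quantile normalization, the intensity trend, array weights, the replicate number as a block, 2 quality covariates, leaving out arrays and the choice of probe set.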

Additional observations from a re-analysis of the deposited data

Results flagged for a closer look

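Among 48 groups of 4 arrays looked at, 6 held an array that stood apart. Its gap to its nearest neighbour exceeded 0.829 of the group's range, Dixon's 95% critical value. About 1 in 20 groups of independent normal values would exceed it. The signals here are linear intensities and the groups share arrays, so the count is not set against that rate. On Fgfr4 1427846_x_at, BMP7 2 read 911.7, against 441.3 for the next array of its group. On Fgfr4 1427777_x_at, BMP7 4 read 395.0 with the next at 99.5, and on Fgfr4 1427845_at, BMP7 3 read 50.9 with the next at 20.4. On Dusp6 1415834_at, BMP7 3 read 1360.6, where the next lowest BMP7 array read 2460.5. On Fgfr3 1425796_a_at, Vehicle 4 read 343.8, where the next highest vehicle array read 55.3. The Actb 3'/5' ratio of Vehicle 3 was 6.55, with the next vehicle array at 1.40.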

How the results depend on the processing

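The fit as reported called 221 probe sets higher in BMP7 and 204 lower, of which 2 and 2 were members, and 3 and 0 genes of the pathway lists. With array weights these were 1013 and 765, 4 members higher, and 8 and 3 list genes. With the hybridisation controls as a covariate they were 17 and 18, 1 and 0 members, and 0 list genes higher. That covariate largely follows the groups, so its fit cannot fully separate it from treatment. Without the filter 1 member was lower and 0 list genes were higher, and without the intensity trend 1 member was lower. With the replicate block 374 probe sets were higher, 5 list genes were higher and 1 was lower, and the members called stayed at 2 and 2. The replicate numbers were not taken as a pairing, since deviations of same-numbered arrays correlated at 0.383, 0.036, 0.152 and 0.187, and not all were above 0.1. The highest correlations with another number were -0.014, 0.114, -0.011 and -0.011, so 3 of the 4 numbers went best with their own, a hint from the data and not the design. Without Vehicle 2 and Vehicle 3, an alternative chosen after seeing the data, 1 list gene was lower. A fit on 1 mean value per gene, which also adjusts over genes in place of probe sets, called 5 list genes higher. With each gene's change averaged over its tested probe sets, the median of the genes downstream of FGFR3 was 0.32 in place of -0.07. The cause of these shifts was not tested.

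Leaving out 1 array at a time gave 39 (without BMP7 3) to 702 (without Vehicle 4) probe sets higher and 51 (without BMP7 3) to 382 (without Vehicle 4) lower, 1 to 3 members higher and 0 to 2 lower, and 0 to 7 list genes higher and 0 to 1 lower. Every BMP7 array and Vehicle 1 lowered the counts over all probe sets by more than 1.5 times when left out, and Vehicle 3 and Vehicle 4 raised them. The shift of Fgfr3 against Fgfr1 was 1.88 with Fgfr1 1425911_a_at and 4.84 with Fgfr3 1425796_a_at.

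Signs turned in probe sets that passed in no setting. Fgfr1 1425911_a_at was -0.10 with the hybridisation controls as a covariate and -0.09 without Vehicle 2 and Vehicle 3. Fgfr4 1427846_x_at was 0.11 with array weights and between -0.46 and 0.07 without 1 array. Spred1 1423160_at was -0.05 with quantile normalization and between -0.14 and 0.21 without 1 array. Spred1 1423162_s_at was -0.0047 with the hybridisation controls. Of all values recomputed, 329 kept their direction and side of the threshold or moved little, 45 lost and 5 gained a call, 54 moved further and 10 turned sign. Low signals limit Spry4, most Fgfr4 probe sets, Spry2 1421656_at and Fgfr3 1425796_a_at.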

Other observations

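Both of the following genes were picked after their values were seen and lie below the signal filter. Fgf10, a ligand of mesenchymal cells that signals to epithelium, averaged 69.05 ± 35.08 in BMP7 and 254.0 ± 119.5 in vehicle (SD, n = 4 each), with 53.1, 106.9, 87.8 and 28.4 in BMP7 arrays and 136.2, 179.9, 299.6 and 400.3 in vehicle arrays. The groups did not overlap, and without the filter limma gave a change of -1.66 with an adjusted p of 0.109. Pth1r, the parathyroid hormone receptor gene of growth plate chondrocytes, read 139.8, 386.7, 643.9 and 362.8 in BMP7 arrays and 10.2, 49.9, 136.4 and 11.8 in vehicle arrays. Its lowest BMP7 array lay just above its highest vehicle array, Vehicle 3, and without the filter limma gave a change of 2.77 with an adjusted p of 0.0578.

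Of the pathway genes close to the threshold, also picked after their values were seen, Ptch1, a hedgehog receptor and target, changed by 1.23 (adjusted p 0.0628 in limma's fit), Myc by 1.01 (0.0544) and Snai1 by 0.90 (0.0670). In a fit on 1 mean value per gene, adjusted over genes in place of probe sets, these 3 passed, at 0.0464, 0.0365 and 0.0475, and Gpc6 did not. Each of the 3 has 1 tested probe set, so their own changes were as before, and what differed was the set of genes fitted and adjusted over.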
